A study of Mus musculus with 6 samples.

Results

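Claudins are the membrane proteins that form the strands of the tight junction, the seal that joins neighbouring epithelial cells at their apical border. Some claudins tighten this seal, while others form channels that let small ions and water pass between the cells, so the mixture a tissue makes helps to set its paracellular permeability. In the colon this mixture bears on how well the sodium that the epithelium has taken up is kept from leaking back into the lumen. This account covers 9 claudins of the mouse colon, namely Cldn1, Cldn2, Cldn3, Cldn4, Cldn7, Cldn8, Cldn12, Cldn15 and Cldn23, among 18193 genes measured. They were listed by name, and each is represented by the 1 probe set, among those annotated to that gene alone, with the highest mean over all 6 arrays. All 9 were measured, by 17 probe sets in all, and no filter on low values was applied.

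The samples are total RNA from the large intestine of untreated female C57BL/6J mice, an inbred strain, with 3 libraries labelled proximal colon and 3 labelled distal colon. The design text gives 3 animals as the source of both regions. Every library has 1 array of its own, and levels are given on the log2 scale, on which a difference of 1 is a 2-fold change. Precision is limited by how few arrays there are, and differences are distal minus proximal throughout. Libraries are called by their labels, such as proximal 1.

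The profiles of 2 libraries went against their labels. The regional gene Hoxb13 was high in distal 1 (13.78), distal 2 (13.29) and the library labelled proximal 1 (13.39), and low in proximal 2 (6.53), proximal 3 (6.48) and the library labelled distal 3 (6.65). Each member is therefore given with all 6 libraries as labelled and without the libraries labelled proximal 1 and distal 3, which leaves 4 libraries, 2 per label. No library was moved to another label. Since those 2 libraries were left out for their own profiles, p-values of the 4-library fit overstate the evidence and describe those libraries only. The mean of 10 pan-epithelial markers was 13.82, 13.81 and 13.80 in proximal 1, distal 1 and distal 2, and 14.002, 14.008 and 14.018 in proximal 2, proximal 3 and distal 3, the same split into 3 and 3 as that of Hoxb13. The 3 brightest, Krt19, Lgals4 and Krt8, lay between 14.48 and 14.77 in all 6 libraries. Pancreatic acinar genes were high in the libraries labelled proximal 1 and distal 1, where the mean of 8 measured genes was 12.39 and 12.30, against 6.14 to 6.63 in the other libraries. Tissue RNA cannot tell fewer cells of a type from less RNA per cell.

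As labelled, no claudin differed between distal and proximal libraries. Of the 9 members 0 passed limma at an adjusted p of 0.05, where the background is 0% of all genes, and 0 passed at an unadjusted p of 0.05, where it is 3.05%. By the probe set used for each, the distal and proximal values overlapped for all 9 members, whereas 7.33% of all genes had ranges that did not overlap. In the 4-library fit, 5 of the 9 members passed, and the pairs' values did not overlap for 7, where the background is 62.2% of all genes. At an unadjusted p of 0.05 6 of the 9 passed, where 35% of all genes did. Cldn8 and Cldn12 were higher in the distal pair, where 7.71% of all genes were higher, and Cldn4, Cldn15 and Cldn23 were lower, where 11.5% of all genes were lower. In either direction 19.2% of all genes passed, and 6.26% passed with at least a 2-fold change, which 3 of the 9 members did. The median difference of the 9 members was -0.11, against -0.045 for all genes. The split over all genes was 1402 higher and 2092 lower as deposited. It became 1737 and 1718 after quantile normalization, 1883 and 1557 after median centring, and 2919 and 1224 when each array was centred on the pan-epithelial markers.

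**Figure D1:**
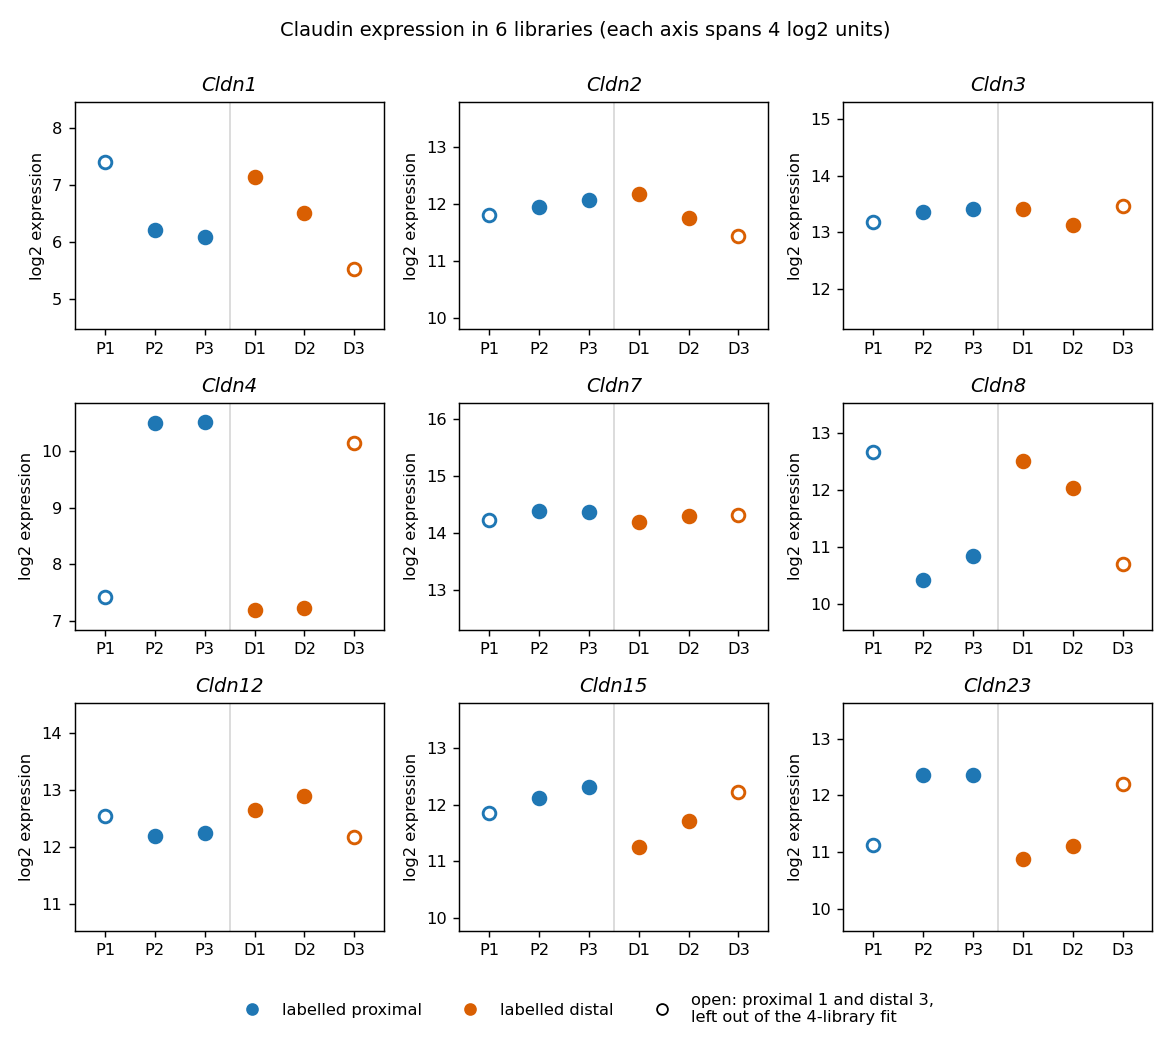
Log2 expression of each of the 9 claudins (vertical axis, 4 log2 units in every panel) in the 6 libraries, labelled proximal (P1 to P3) and distal (D1 to D3), with 1 point per library; open points are the libraries labelled proximal 1 and distal 3. Cldn4 and Cldn23 are high in P2, P3 and D3 and Cldn8 is high in P1, D1 and D2, while Cldn3 and Cldn7 stay within 0.32 and 0.19 across all libraries.

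Among the claudins that tighten the junction, Cldn4 had the widest range. Cldn4 encodes a barrier claudin that is also a receptor of the enterotoxin of Clostridium perfringens. It measured 10.49 and 10.50 in proximal 2 and proximal 3, and 7.20 and 7.24 in distal 1 and 2. The library labelled proximal 1 was low at 7.43, and that labelled distal 3 was high at 10.13. The 6 values thus fell into 3 high and 3 low ones with nothing between 7.43 and 10.13, and each labelled group held both kinds. As labelled the means were 8.19 ± 1.68 in distal and 9.47 ± 1.77 in proximal libraries (SD, n = 3 each), a difference of -1.28 (SE 1.12, limma adjusted p = 0.824). In the 4 libraries the difference was -3.28 (95% confidence interval -3.53 to -3.02, limma adjusted p = 1.95e-04), which is 9.68-fold lower in the distal pair. Cldn4 was the only member that passed with any 1 of the 4 libraries left out, with differences from -3.30 to -3.26 and adjusted p from 0.0292 to 0.0487. Its range of 3.30 over the 6 libraries was wider than or equal to that of 99.1% of all genes.

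Cldn3 lies next to Cldn4 on chromosome 5, with 0 genes between them in the RefSeq gene table, and did not pass in either fit. Cldn3, a barrier claudin common to most simple epithelia, measured 13.19, 13.36 and 13.42 in proximal 1, 2 and 3, and 13.42, 13.14 and 13.46 in distal 1 to 3. The values of the groups overlapped. The difference was 0.017 as labelled (95% confidence interval -0.30 to 0.33, limma adjusted p = 0.975) and -0.11 in the 4 libraries (-0.45 to 0.23, limma adjusted p = 0.620), intervals that leave room for small differences either way. By its name, the probe set used for Cldn3 can also match other transcripts. A weaker Cldn3 probe set with a mean of 12.23 differed by -0.44 in the 4 libraries and did not pass (limma adjusted p = 0.125 over 34945 probe sets).

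The start regions of these neighbours are printed with those of Cldn15, which like Cldn4 was lower in the distal pair, and Cldn2, whose probe sets gave unlike results. Start regions were available for 7 of the 9 members. Cldn8 and Cldn23 had none, although their differences in the 4 libraries were larger than that of Cldn15. The windows run from 250 bases before to 50 bases after the gene start, 5′ to 3′ on the gene's strand, as given by RefSeq on GRCm38.p6. They are chr5:134946885-134947184 on the minus strand for Cldn4, chr5:134985964-134986263 on the plus strand for Cldn3, chr5:136967619-136967918 on the plus strand for Cldn15 and chrX:139800558-139800857 on the plus strand for Cldn2. Capitals mark the motifs searched on both strands, which were GGGCGG, the GC box (read as CCGCCC on the other strand), TATAAA, known as the TATA box, and TTTATNG, which is of the kind that CDX factors bind.
Cldn4: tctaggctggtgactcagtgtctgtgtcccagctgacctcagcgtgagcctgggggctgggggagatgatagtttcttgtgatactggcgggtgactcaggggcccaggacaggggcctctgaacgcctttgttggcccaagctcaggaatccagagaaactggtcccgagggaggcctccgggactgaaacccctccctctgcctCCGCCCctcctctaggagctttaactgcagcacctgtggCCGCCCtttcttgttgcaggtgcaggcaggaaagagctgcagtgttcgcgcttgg
Cldn3: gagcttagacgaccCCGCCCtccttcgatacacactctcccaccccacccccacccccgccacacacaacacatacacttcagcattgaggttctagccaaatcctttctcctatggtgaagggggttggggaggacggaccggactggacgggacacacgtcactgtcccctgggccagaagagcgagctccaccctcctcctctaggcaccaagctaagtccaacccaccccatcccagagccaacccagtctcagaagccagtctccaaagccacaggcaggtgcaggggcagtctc
Cldn15: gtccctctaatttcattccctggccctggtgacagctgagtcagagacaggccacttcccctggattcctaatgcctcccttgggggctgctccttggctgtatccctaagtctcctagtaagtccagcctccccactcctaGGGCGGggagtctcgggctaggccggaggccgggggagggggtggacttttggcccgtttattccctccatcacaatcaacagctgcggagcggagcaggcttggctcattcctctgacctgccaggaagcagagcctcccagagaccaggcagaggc
Cldn2: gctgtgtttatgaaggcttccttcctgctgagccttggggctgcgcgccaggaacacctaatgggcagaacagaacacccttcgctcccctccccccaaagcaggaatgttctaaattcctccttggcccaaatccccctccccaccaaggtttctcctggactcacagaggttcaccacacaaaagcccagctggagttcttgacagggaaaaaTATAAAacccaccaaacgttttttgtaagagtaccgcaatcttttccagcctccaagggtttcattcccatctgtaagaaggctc
The Cldn4 window held 2 GC boxes, whose first printed bases lie 44 and 5 bases before the start. The Cldn3 window held 1, at 236 bases before the start, and the Cldn15 window held 1, at 108 bases before it. The Cldn2 window held no GC box and 1 TATA box, 35 bases before the start. Over the 7 members matched in the RefSeq table, by 10 windows, Cldn1 also had 2 GC boxes, 1 of the 2 Cldn7 windows had 1, and 2 overlapping Cldn12 windows of 3 shared 1. Of all 32851 windows, 35.7% held a GC box, 13.6% a TATA box and 10.9% TTTATNG, which was found in 0 of the 10 windows. No match overlapped one of another motif. GC content was 61.0% for Cldn4, 60.7% for Cldn3, 61.0% for Cldn15 and 51.3% for Cldn2, against a median of 52.7% over all windows. Cldn8 and Cldn23 had no window and are named only.

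Cldn8 ran opposite to Cldn4. Cldn8 encodes a barrier claudin of aldosterone-responsive epithelia, known for limiting the back-leak of sodium in the distal colon and the distal nephron. It measured 10.41 and 10.84 in proximal 2 and proximal 3, and 12.51 and 12.04 in distal 1 and 2. The library labelled proximal 1 held the highest value, 12.67, and the library labelled distal 3 had 10.69, between proximal 2 and 3. As labelled, distal libraries averaged 11.75 ± 0.94 and proximal libraries 11.31 ± 1.20 (SD, n = 3 each), a difference of 0.44 (SE 0.71, limma adjusted p = 0.871). Across the 4 libraries Cldn8 was 1.65 higher in the distal pair (95% confidence interval 1.10 to 2.20, limma adjusted p = 0.00898), a 3.14-fold difference. With any 1 of these 4 libraries left out the difference stayed between 1.42 and 1.89 but no longer passed (adjusted p from 0.0715 to 0.132).

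Cldn23 followed Cldn4 at a smaller scale. Cldn23 encodes a claudin found in the differentiated surface cells of the colon. It measured 12.36 in both proximal 2 and proximal 3, and 10.88 and 11.10 in distal 1 and 2. The library labelled proximal 1 had 11.13 and the library labelled distal 3 had 12.20, so the 6 values again split 3 and 3 across the labels. As labelled the difference was -0.56 (SE 0.47, limma adjusted p = 0.824). With 4 libraries it was -1.37 (95% confidence interval -1.68 to -1.06, limma adjusted p = 0.00300), or 2.58-fold lower in the distal pair. It passed without distal 1 or without distal 2, and not without proximal 2 (adjusted p = 0.0920) or proximal 3 (0.100).

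Cldn1 was the dimmest member and its call depended on the scaling. Cldn1 encodes a barrier claudin that the skin needs to hold water. It measured 7.41, 6.20 and 6.08 in proximal 1, 2 and 3, and 7.14, 6.51 and 5.52 in distal 1 to 3. Its highest values were in the libraries labelled proximal 1 and distal 1, which are also the 2 with high acinar genes, and the part of those cells in it was not tested. The distal and proximal values overlapped as labelled, with a difference of -0.17 (SE 0.51, limma adjusted p = 0.933). The sign turned in the 4-library fit, to 0.69 (95% confidence interval 0.13 to 1.24, limma adjusted p = 0.0899), which did not pass. With 1 of the 4 libraries left out it ran from 0.37 without distal 1 to 1.0 without distal 2, with adjusted p from 0.0607 to 0.441. With each array centred on the pan-epithelial markers it was 0.89 and passed (limma adjusted p = 0.0403). That centring moved the median of all genes from -0.045 to 0.157. Cldn1 did not pass after quantile normalization (0.74, limma adjusted p = 0.0721), after median centring (0.775, 0.0754) or with the mean of its probe sets (0.16, 0.393). The mean of 6.48 lies under the lower quartile of all gene values, 6.54, and the other 3 Cldn1 probe sets, with means of 3.18 to 4.56, differed by -0.095 to 0.05. For squamous epithelium, in which Cldn1 is abundant, the mean of 10 markers ran from 6.58 to 6.74 over the libraries. Of these only Krt14 passed in the 4 libraries (0.42, limma adjusted p = 0.0484), that is 10% where 19.2% of all genes did. Only 1 of the 3 Krt14 probe sets passed when each was tested alone, and their differences ran from -0.005 to 0.46.

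Cldn7 was the brightest and steadiest member. Cldn7 encodes a claudin of the tight junction and the lateral membrane that binds the adhesion protein EpCAM. It measured 14.23, 14.39 and 14.37 in proximal 1, 2 and 3, and 14.20, 14.30 and 14.32 in distal 1 to 3. Its range of 0.19 was as wide as or wider than that of 5.65% of all genes, and its mean of 14.30 lay at the 99.7th percentile of gene means. The difference was -0.057 as labelled (95% confidence interval -0.30 to 0.18) and -0.13 in the 4 libraries (-0.40 to 0.14), with limma adjusted p of 0.882 and 0.451. Its sign turned when arrays were centred on the pan-epithelial markers. Epcam itself measured 14.14 to 14.31 over the 6 libraries and differed by -0.075 in the 4 libraries (limma adjusted p = 0.684).

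**Figure D2:**
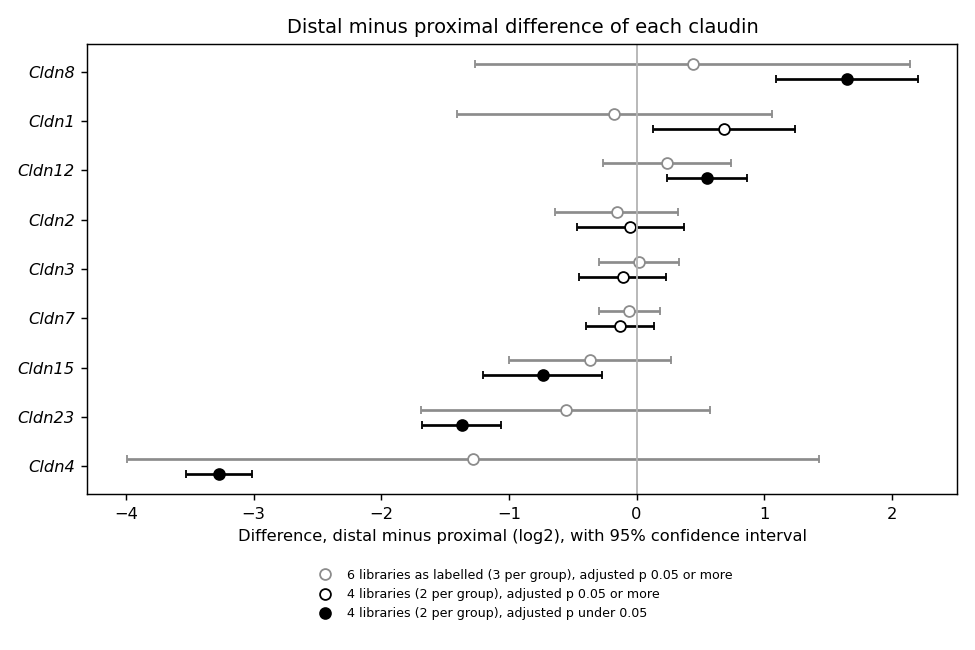
Difference of each claudin, distal minus proximal on the log2 scale (horizontal axis), with bars for the 95% confidence interval, in the fit of 6 libraries as labelled (grey, 3 per group) and of 4 libraries (black, 2 per group); filled points passed at a limma adjusted p of 0.05. The filled points are Cldn8 and Cldn12 above 0 and Cldn15, Cldn23 and Cldn4 below 0, and 0 of the grey points are filled.

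The channel-forming claudins were Cldn2 and Cldn15. Cldn15, which forms a cation channel and is the main claudin channel of the small intestine, measured 12.11 and 12.32 in proximal 2 and proximal 3, and 11.25 and 11.71 in distal 1 and 2. The library labelled proximal 1 had 11.85, about midway between the pairs, and the library labelled distal 3 had 12.23. As labelled the difference was -0.36 (SE 0.26, limma adjusted p = 0.824). In the 4 libraries it was -0.74 (95% confidence interval -1.20 to -0.27), a 1.66-fold lower level that only just passed (limma adjusted p = 0.0492). It did not pass after quantile normalization (-0.70, adjusted p = 0.0561), after median centring (-0.65, 0.0562), when centred on the pan-epithelial markers (-0.53, 0.0960), or with any 1 of the 4 libraries left out (0.0734 to 0.360).

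Cldn2, which forms a channel for cations and water in leaky epithelia, gave unlike results by its 2 probe sets. The brighter one measured 11.80, 11.95 and 12.08 in proximal 1, 2 and 3, and 12.17, 11.76 and 11.43 in distal 1 to 3. Its groups overlapped, and the difference was -0.16 as labelled (95% confidence interval -0.64 to 0.33, limma adjusted p = 0.849) and -0.05 in the 4 libraries (-0.47 to 0.37, limma adjusted p = 0.866). The dimmer probe set measured 8.17, 8.82 and 8.91 in proximal 1, 2 and 3, and 7.87, 8.14 and 7.82 in distal 1 to 3. Its proximal values all lay above its distal values as labelled, but only just, with 8.17 as the lowest proximal and 8.14 as the highest distal value. Among all genes, by 1 probe set each, 7.33% had ranges that did not overlap. Tested among 34945 probe sets, it differed by -0.69 as labelled (SE 0.22, limma unadjusted p = 0.0176, adjusted p = 0.786) and by -0.86 in the 4 libraries (SE 0.14, limma adjusted p = 0.0124). With the mean of both probe sets Cldn2 passed in the 4 libraries at -0.46 (limma adjusted p = 0.0336). The library labelled distal 3 was the lowest for both Cldn2 probe sets, whereas for Cldn4, Cldn8, Cldn15 and Cldn23 it lay beside proximal 2 and 3.

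Cldn12 was higher in the distal pair with both of its probe sets. Cldn12 encodes an atypical claudin that lacks the tail motif by which most claudins bind the junctional plaque, and it has been linked with calcium permeability. The brighter probe set measured 12.55, 12.20 and 12.25 in proximal 1, 2 and 3, and 12.66, 12.89 and 12.17 in distal 1 to 3. Distal 1 and 2 were highest, proximal 1 came next, and distal 3 was lowest. As labelled the difference was 0.24 (SE 0.21, limma adjusted p = 0.824). The 4-library difference was 0.55 (95% confidence interval 0.23 to 0.87, limma adjusted p = 0.0375), or 1.46-fold. The other probe set gave 0.49 (SE 0.11, limma adjusted p = 0.0341 over 34945 probe sets). With any 1 of the 4 libraries left out the brighter probe set gave 0.44 to 0.67 and did not pass (adjusted p from 0.0504 to 0.297).

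**Figure D3:**
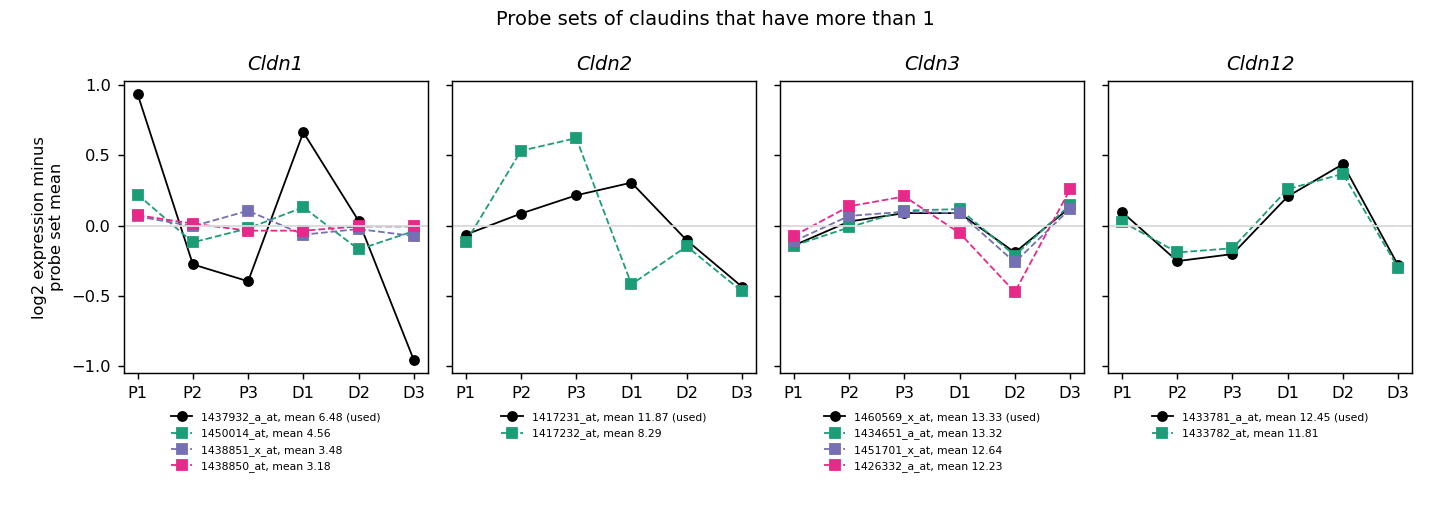
Log2 expression minus the probe set's own mean (vertical axis) in the libraries labelled proximal (P1 to P3) and distal (D1 to D3), for the 4 claudins with more than 1 probe set; each line joins the values of 1 probe set, and solid lines with circles mark the one used. The 2 Cldn12 probe sets run together, the 2 Cldn2 probe sets part in P2, P3 and D1, and only the brightest Cldn1 probe set moves widely.

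The libraries left out of the 4-library fit sided with the other label for most members, as they did for most genes that passed. They were left out because their profiles went against their labels, so this is no separate result about claudins. Of the 5 members that passed, 4 had a value in proximal 1 that was closer to the mean of distal 1 and 2, and 5 had a value in distal 3 that was closer to the mean of proximal 2 and 3. Among the 3494 genes that passed, 75.6% had proximal 1 closer to distal 1 and 2, and 9.82% had distal 3 closer to them. Weighting each array by its own fit to its label gave weights of 0.322 for proximal 1 and 0.291 for distal 3, but also 0.403 for distal 2, against 6.72 for proximal 2. The weights came from these same values and labels, so p-values of the weighted fit overstate the evidence as well. With these weights on all 6 libraries 5 members passed, where 5579 of 18193 genes did. The members that passed were Cldn4 (-2.91), Cldn23 (-1.29), Cldn15 (-0.74), Cldn12 (0.42) and Cldn8 (1.71), with limma adjusted p from 0.0253 to 0.0319.

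Of 15 other claudin entries measured, which include genes that RefSeq lists under a claudin synonym, 1 was higher and 2 were lower in the distal pair, and 12 did not pass, so that 20% passed, near the 19.2% of all genes. As labelled 0 of the 15 passed limma, and 0 at an unadjusted p of 0.05. Cldn14, a barrier claudin known from the inner ear and the kidney, measured 6.36 and 6.84 in proximal 2 and proximal 3, and 8.08 and 7.71 in distal 1 and 2, with 8.19 in proximal 1 and 7.03 in distal 3. Its difference in the 4 libraries was 1.30 (SE 0.21, limma adjusted p = 0.0158). Cldn10, whose variants form ion channels, differed by -0.64 (limma adjusted p = 0.0303) by a probe set that can match several transcripts. Cldnd1, a claudin domain protein, differed by -0.91 (limma adjusted p = 0.0370), with the same direction in its 3 probe sets. Cldn5, the claudin of blood vessel endothelium, measured 8.70 to 9.34 over the 6 libraries and differed by 0.045 in the 4 libraries (limma adjusted p = 0.867). Of 8 endothelial markers 1 was lower in the distal pair (Emcn, -0.65, limma adjusted p = 0.0483), that is 12.5%, below the 19.2% of all genes. The mean of the endothelial markers ran from 8.76 to 9.14.

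Other junction genes passed in both directions. Of 14 other membrane proteins of the tight junction, 3 were higher and 2 lower in the distal pair, and 9 did not pass, that is 35.7% passed where 19.2% of all genes did. Members of the angulin family, which mark the corners where 3 cells meet, were among those that passed. Ildr1 measured 11.47 and 11.39 in proximal 2 and proximal 3, and 10.12 and 10.17 in distal 1 and 2, with 10.21 in proximal 1 and 11.29 in distal 3. It was lower in the distal pair, with a difference of -1.29 (SE 0.11, limma adjusted p = 0.00246). Lsr and Ildr2 were higher, by 0.89 (limma adjusted p = 0.00953) and 1.25 (limma adjusted p = 0.00918). Of the 2 Lsr probe sets only 1 passed, and the other gave 0.155. The probe sets of Ildr2 did not all share a direction, and the one used can match several transcripts. Marveld3, a relative of occludin, was higher by 0.66 (limma adjusted p = 0.0223) by 1 of its 3 probe sets only. Ocln, which encodes occludin, measured 12.24 to 12.69 over the 6 libraries and differed by 0.28 (limma adjusted p = 0.214).

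Of 21 measured plaque and polarity proteins, which tie the strands to the cytoskeleton and place the junction, 2 were higher and 1 lower in the distal pair, and 18 did not pass, a share of 14.3% that lies below the 19.2% of all genes. Cgnl1, or paracingulin, was higher by 1.05 (SE 0.10, limma adjusted p = 0.00396). Its 5 probe sets shared this sign, but their differences ran from 0.06 to 1.05 and only 2 of them passed. Amotl1, an angiomotin relative, was higher by 0.77 (limma adjusted p = 0.0202), with 1 of its 3 probe sets of the other sign. Pard6b, a scaffold of the polarity complex, differed by -0.75 (limma adjusted p = 0.0199). Tjp1, which encodes the plaque protein ZO-1, measured 13.04 to 13.34 over the 6 libraries and differed by 0.25 (limma adjusted p = 0.160). Of 9 measured proteins that act on claudins, among them Epcam and the protease inhibitor gene Spint2, 0 passed limma in either fit. Of 14 genes of the adherens junction and desmosome, Nectin4 (0.98, limma adjusted p = 0.00511) was higher and Nectin2 (-0.67, limma adjusted p = 0.0206) lower in the distal pair, again 14.3%. Only 1 of the 2 Nectin4 probe sets passed, and the other gave 0.54. In the fit of 6 libraries as labelled, 0 genes of these lists passed by limma, and 0 at an unadjusted p of 0.05. At an unadjusted p of 0.05 in the 4 libraries, where the background is 35%, the counts were 4 of 15 other claudins, 6 of 14 membrane proteins, 8 of 21 plaque and polarity proteins, 1 of 9 proteins that act on claudins and 3 of 14 adherens and desmosome genes. List medians in the 4 libraries ran from -0.075 to 0.125, against -0.045 for all genes.

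**Figure D4:**
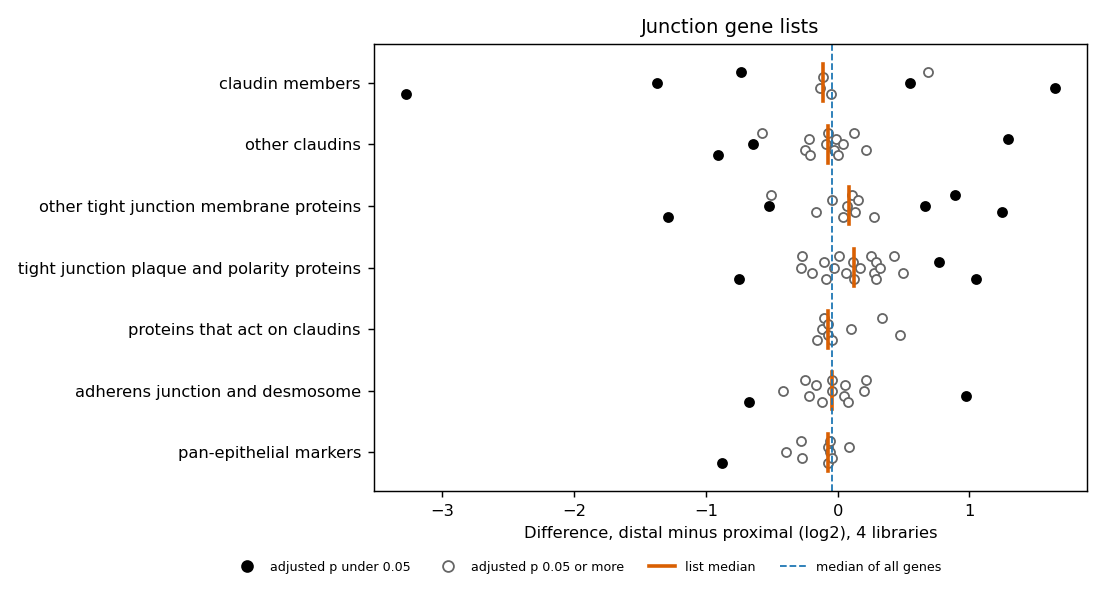
Difference of each measured gene, distal minus proximal on the log2 scale in the 4 libraries (horizontal axis), for the 9 claudins and 6 gene lists (rows); filled points passed at a limma adjusted p of 0.05, orange bars are list medians and the dashed line is the median of all genes, -0.045. Cldn4 at -3.28 and Cldn8 at 1.65 lie at the ends, and 0 of the 9 proteins that act on claudins passed.

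Markers of other cells bear on how the tissue was composed. Of 10 pan-epithelial markers 9 were lower on average in the distal pair, with a median difference of -0.073, against -0.045 for all genes. At an unadjusted p of 0.05 4 of the 10 passed, where 35% of all genes did. Only the transcription factor Cdx2 passed (-0.88, limma adjusted p = 0.0212), that is 10% where 19.2% of all genes did. Cdh17 differed by -0.39 (adjusted p = 0.0796). Centring each array on the pan-epithelial list left Cldn4 at -3.07, Cldn23 at -1.17, Cldn8 at 1.85 and Cldn12 at 0.75, all 4 with adjusted p under 0.05. With it Cldn15 no longer passed (-0.53, limma adjusted p = 0.0960), whereas Cldn1 did (0.89, limma adjusted p = 0.0403). Such centring moves the difference of every gene by the same amount, so it could not remove differences as large as that of Cldn4. The part of epithelial content in the members' differences was not tested. All 8 smooth muscle markers were higher on average in the distal pair, with a median difference of 0.31 against -0.045 for all genes. Of these only Des passed (0.62, limma adjusted p = 0.0368), that is 12.5% where 19.2% of all genes did. An unadjusted p under 0.05 was found for 4 of the 8, where the background is 35%. The 3 brightest, Tagln, Acta2 and Actg2, differed by 0.36, 0.27 and 0.22. The mean of the list was 13.06 and 13.15 in distal 1 and 2, 12.86 and 12.68 in proximal 2 and 3, 13.07 in proximal 1 and 13.10 in distal 3, and the part of muscle in the members' differences was not tested. Of 6 mesothelial markers Wt1 (0.69) and Upk1b (-0.61) passed, that is 33.3% where 19.2% of all genes did. The mean of the mesothelial list was 6.51 to 7.16. All 8 measured acinar genes were higher in the distal pair on average, with a median difference of 3.12. That difference rests mainly on distal 1, where the list mean was 12.30. In distal 2 it was 6.22, beside 6.41 and 6.14 in proximal 2 and 3. Only Clps passed (2.67, limma adjusted p = 0.0198), that is 12.5% where 19.2% of all genes did. Clps measured 13.62, 9.69 and 9.67 in proximal 1, 2 and 3, and 13.10, 11.59 and 12.37 in distal 1, 2 and 3, so it was also raised in distal 2 and 3, where the mean of the acinar list was 6.22 and 6.63. In distal 2 Cldn4 was at 7.24, Cldn8 at 12.04 and Cldn23 at 11.10, beside 7.20, 12.51 and 10.88 in distal 1. The part of acinar cells in these differences was not tested.

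Genes with the profile most like that of the widest-ranging members were found by the root mean square distance between profiles over the 6 libraries, each centred on its own mean. For Cldn4 these were Ms4a18 (distance 0.099), Gsdme, which encodes a gasdermin (0.105), Mpp6 (0.176), Slc22a4, an organic cation transporter (0.187), and Lrrtm1 (0.191), where the median over all genes was 1.53. Gsdme measured 13.10 and 13.05 in proximal 2 and 3 and 12.70 in distal 3, against 10.18 in proximal 1, 9.75 in distal 1 and 10.06 in distal 2. For Cldn8 they were Vtcn1 (0.142), the elastase gene Cela1 (0.155), the glycosyltransferase gene Abo (0.194), Prdm14 (0.198) and Bnipl (0.201), where the median over all genes was 0.940. With 6 libraries these distances only describe the values.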

How the data were processed

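The authors deposited 1 value per probe set and array, computed by RMA in Partek 6.5 per the submitters' processing notes. These deposited values are treated as log2 levels, as RMA gives, and no other setting is stated in the sources used. Of 45101 probe sets, 64 controls were left out and 34945 had 1 gene symbol, updated through the gene identifier with a RefSeq table (GRCm38.p6) for 34741. All 18193 genes were fitted by lmFit and eBayes of limma 3.58.1, run in R 4.3.3 (two-sided, Benjamini-Hochberg over all genes, adjusted p threshold 0.05). The labels do not say which libraries share an animal, so p-values measure the spread between libraries. Named beside the members were other claudins that passed, up to 4 genes per list with the smallest adjusted p, the 3 brightest of cell type lists, and the 5 nearest profiles of 2 members. Cdh17, Epcam, Spint2, Ocln, Tjp1 and Cldn5 were added after their values were seen, and Hoxb13 as a check of the labels. Members, lists and the 4-library fit were chosen with earlier results of these data known. Alternatives were a filter on genes below the median mean, the mean of probe sets, each probe set alone, quantile normalization, median centring, centring on pan-epithelial markers, a trended and robust prior, array weights, the title number as a block, each library left out, and a threshold of 0.01. The calculation was tested on simulated data with independent libraries that all matched their labels. That test does not cover libraries that go against their labels or libraries that share an animal.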

Additional observations from a re-analysis of the deposited data

How the results depend on the processing

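With 6 libraries as labelled, the count of members and of all genes called stayed at 0 under every alternative run except array weights, which called 5 members and 5579 genes. The replicate block called 0 members and 0 genes as well. Deviations of same-numbered libraries from the means of their labels correlated at 0.677, -0.448 and 0.678. Proximal 1 and distal 3, which went against their labels, dominate these deviations, so the values do not settle whether a number marks an animal, and the block serves only as an alternative. In the 4 libraries, which share 1 number only, no block was possible. There the 5 members called became 4 under the filter on low values, quantile normalization and median centring, and 6 with the mean of probe sets. The filter removes Cldn4 and Cldn1, whose means lie below the median of 9.31, so they were not tested under it. The count became 3 at a threshold of 0.01 and 1 to 2 with 1 library left out, when 1 residual degree of freedom remains and the lone library is assumed to vary like the other pair. The 3494 genes became 1112, 146 to 1633, and 7549 of 34945 when each probe set was tested alone. The cause of these moves beyond fewer samples or more features was not tested. Signs turned only for members that did not pass in the fit concerned. As labelled, Cldn3 became -0.042 with the mean of probe sets, Cldn7 0.0067 after median centring and 0.011 with epithelial centring, and Cldn1 and Cldn2 0.69 and 0.083 with array weights. With 1 library left out Cldn1 ran from -0.55 to 0.26, Cldn2 from -0.35 to 0.022, Cldn3 from -0.05 to 0.12 and Cldn8 from -0.0083 to 1.12. Without a change of sign Cldn4 ran from -2.31 to -0.77, Cldn23 from -0.97 to -0.30, Cldn15 from -0.61 to -0.12 and Cldn12 from 0.082 to 0.44. In the 4 libraries Cldn2 became 0.04 after median centring, and Cldn2, Cldn3 and Cldn7 became 0.15, 0.092 and 0.072 with epithelial centring, which moved the median of all genes from -0.045 to 0.157. With 1 library left out Cldn2 ran from -0.255 to 0.155 and Cldn3 from -0.25 to 0.03.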
